A study of Homo sapiens with 4 samples.

Results

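The 45 genes described here encode the machinery that licenses replication origins and copies DNA. They were taken as the rows of the deposited tables whose symbol is on a list of DNA replication licensing and fork genes, and all 45 were present among 25411 genes. RNA came from BEAS-2B, a human bronchial epithelial line that was immortalised with an SV40 hybrid virus, grown in Dulbecco's Modified Eagle's Medium. The control group (2 libraries) was grown for 72 h and its labels name no metal. In the cadmium group (2 libraries) 5 µM CdCl2 was in the medium for those 72 h. The labels name the controls experiment 1 and the cadmium libraries experiment 2, so that an effect of experiment and one of cadmium cannot be told apart. They do not say whether the 2 libraries of a group were separate cultures, and a p-value here measures only how far these libraries spread, which may be technical.

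Before S phase, the origin recognition complex (ORC), CDC6 and CDT1 load the MCM2 to MCM7 helicase onto DNA as an inactive ring. This step is called licensing, and geminin (GMNN) stops it by binding CDT1. The kinase CDC7 with its partner DBF4 then allows CDC45 and the GINS complex to join the ring, which starts to unwind DNA. Polymerase alpha with primase lays down primers, replication factor C (RFC) loads the sliding clamp PCNA, and polymerases delta and epsilon extend the strands. Many of these genes are transcribed under the control of E2F factors, which RB family proteins hold in check, and the large T antigen of SV40 binds RB proteins. These are general statements and not results of the data.

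RefSeq promoter windows (GRCh38.p14, 250 bases before to 50 bases after a gene start) were found for 39 of the 45 genes. They were searched on both strands for the E2F consensus in its 4 forms TTTCCCGC, TTTCGCGC, TTTGCCGC and TTTGGCGC, and for the NF-Y box CCAAT. An E2F form was present for 19 of the 39 genes (48.7%), against 666 of 9982 tested genes with a window (6.67%). Counted by window, since some genes have several, it was present in 19 of the 50 windows of these genes (38%) and in 1164 of all 35116 windows (3.31%). A CCAAT box was present for 24 (61.5%), against 42.8% of the tested genes with a window. By window it was present in 58% for these genes and in 34.6% of all windows. A site that reads as a match on both strands counts as 2 overlapping matches. Stretches of 170 bases that end just before the gene start are printed 5′ to 3′ on the strand of the gene, with every match in capitals. CDT1 and RFC4 are shown because they were the genes that rose, MCM6 because it holds 2 such E2F sites, and PCNA as the sliding clamp, with the first of its 2 windows. The stretches lie at chr16:88803619-88803788 on the plus strand (CDT1), and on the minus strand at chr3:186806483-186806652 (RFC4), chr2:135876444-135876613 (MCM6) and chr20:5126623-5126792 (PCNA).

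CDT1: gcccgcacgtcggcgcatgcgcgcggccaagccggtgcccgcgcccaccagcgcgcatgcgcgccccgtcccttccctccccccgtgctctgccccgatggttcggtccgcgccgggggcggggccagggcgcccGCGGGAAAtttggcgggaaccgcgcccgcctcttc
RFC4: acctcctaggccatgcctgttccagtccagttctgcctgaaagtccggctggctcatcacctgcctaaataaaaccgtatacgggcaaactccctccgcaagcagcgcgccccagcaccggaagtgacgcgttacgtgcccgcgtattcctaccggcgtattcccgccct
MCM6: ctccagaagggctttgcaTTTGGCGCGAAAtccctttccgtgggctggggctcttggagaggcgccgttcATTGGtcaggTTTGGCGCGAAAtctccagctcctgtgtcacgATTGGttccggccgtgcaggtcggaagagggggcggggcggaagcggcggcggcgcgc
PCNA: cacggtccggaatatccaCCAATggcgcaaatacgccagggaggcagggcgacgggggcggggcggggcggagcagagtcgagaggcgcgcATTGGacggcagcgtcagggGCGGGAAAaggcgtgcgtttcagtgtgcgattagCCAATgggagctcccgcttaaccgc

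The CDT1 stretch holds 1 E2F match and no CCAAT box, and the RFC4 stretch holds neither. In MCM6 each of the 2 E2F sites is read on both strands, which gives 4 matches, and 2 CCAAT boxes lie beside them. PCNA has 1 E2F match and 3 CCAAT boxes. A match is a string of letters and not a measured binding site, and a window without a match says nothing of the factor.

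**Figure D1:**
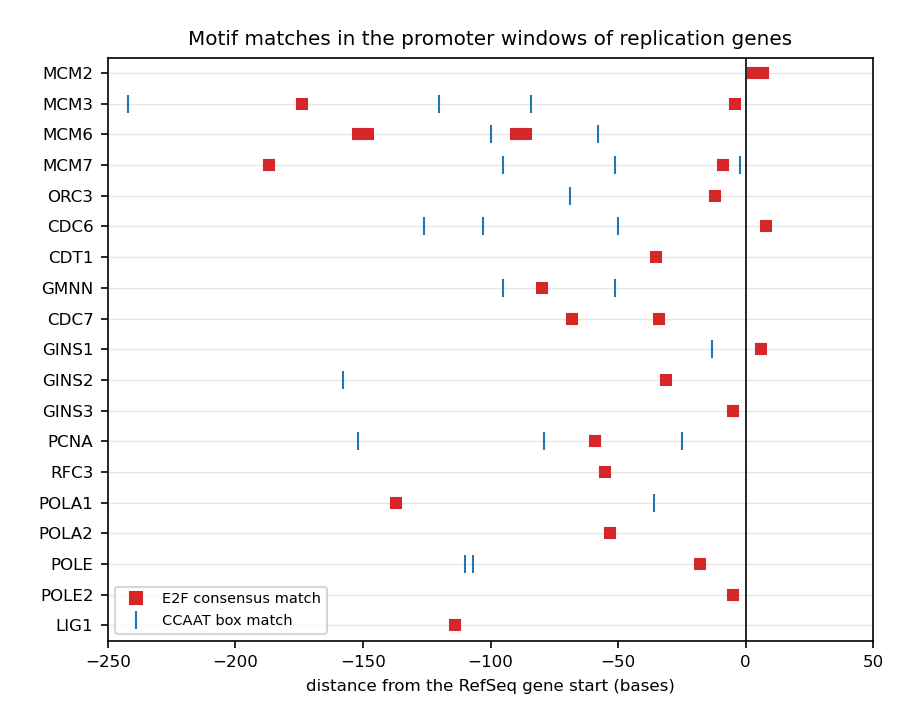
Positions of E2F consensus matches (red squares) and CCAAT boxes (blue bars) in the promoter windows of the 19 replication genes with an E2F match, as the distance of the first base of the match from the RefSeq gene start; for genes with several windows, the window with the E2F match is drawn. E2F matches run from -187 (MCM7) to 8 (CDC6), and MCM6 and MCM2 show matches that overlap on both strands.

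Replication genes were expressed well above the typical gene. The levels were RPKM as deposited, which scales reads by gene length and library size so that genes of different length can be compared. Over the tested genes the median in control was 8.06 RPKM, and over the 45 replication genes it was 32.7 RPKM. Of the 45 genes, 42 lay at or above the median of the tested genes. The highest were TK1, a thymidine kinase of the salvage pathway (388 RPKM in control), PCNA (249.6 RPKM) and MCM7 (186 RPKM). The lowest were the polymerase epsilon subunit POLE2 (3.92 RPKM), ORC2 (5.53 RPKM) and DBF4 (6.64 RPKM).

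Subunits of the same machine did not have the same RNA level. Within the MCM ring the control mean ran from 32.7 RPKM for MCM6 to 186 RPKM for MCM7, a ratio of 5.68. The ratio of MCM7 to MCM6 was 5.54 and 5.82 without cadmium and 5.39 and 5.48 with it, so the groups did not overlap but lay close together. Among the ORC subunits on the list, the control mean ran from 5.53 RPKM (ORC2) to 21.1 RPKM (ORC6). ORC4, a subunit kept on the list of other replication genes, had a lower control mean of 5.33 RPKM. Among the 8 firing factors DBF4 was lowest and CDC45 highest (52.8 RPKM). In the group of clamp and loader, PCNA stood 21.4 times as high as RFC1, the largest loader subunit (11.6 RPKM). Among RPA subunits, which coat single-stranded DNA, RPA1 (93.1 RPKM) was the highest and RPA3 (18.6 RPKM) the lowest.

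**Figure D2:**
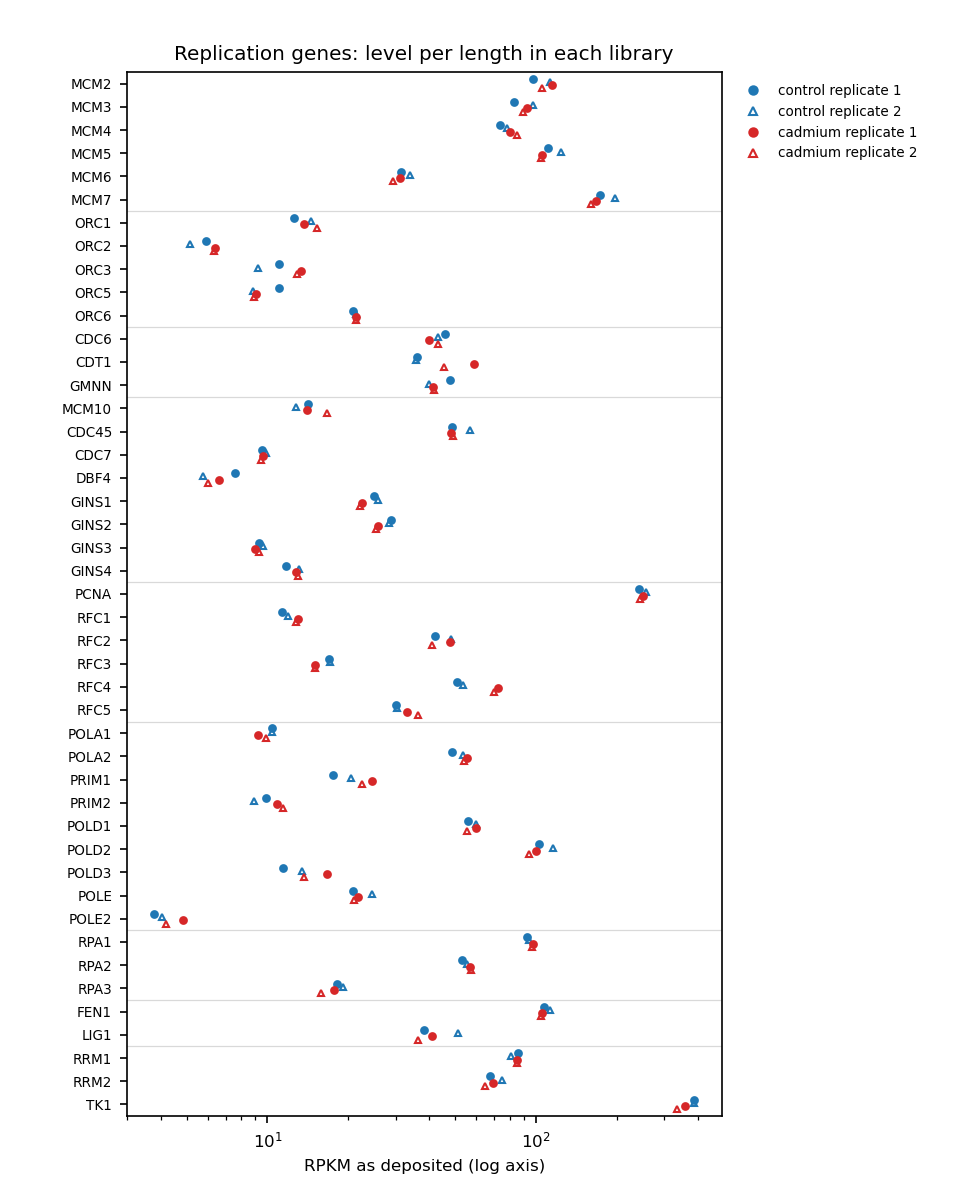
RPKM as deposited for the 45 replication genes in each of the 4 libraries (log axis; control in blue, cadmium in red; circles replicate 1, triangles replicate 2), ordered by role. The levels run from POLE2 (3.92 RPKM in control) to TK1 (388 RPKM), and for most genes the 4 libraries lie close together.

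The main comparison asked which replication genes differed after 72 h with cadmium. CDT1 and RFC4 rose, and no replication gene fell. CDT1, the licensing factor that loads the helicase, was 1.42-fold higher, and RFC4, a subunit of the clamp loader, was 1.34-fold higher. Counts were scaled to library size with TMM factors (CPM) and tested with edgeR's quasi-likelihood test, with Benjamini-Hochberg adjustment over all 13663 tested genes. All 45 genes passed the filter on low counts. Of them 2 rose (4.44%), 0 fell and 43 did not pass an adjusted p of 0.05, while 8.85% of all tested genes were higher and 7.66% lower. Of the tested genes with a mean of 20 CPM or more, 7.63% were higher and 11.8% lower. Without adjustment 4 of the 45 genes were higher and 4 lower at p under 0.05, while 17.3% of all tested genes were higher and 16.7% lower at that threshold. With a mean of 20 CPM or more, 1103 of 8046 tested genes were higher and 1948 lower at it. DESeq2 and limma-voom each gave 2 higher and 0 lower.

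Most changes were small. The median log2 fold change over the 45 genes was -0.044, beside 0.0019 over all tested genes, and the range was -0.23 to 0.51. With a mean of 20 CPM or more, the median was -0.049 over 44 replication genes and -0.059 over 8046 tested genes. Below 0 lay 27 of those 44 replication genes and 4749 of those 8046 tested genes. A change of less than 0.2 on the log2 scale was seen for 34 of the 45 genes (75.6%), and for 44.5% of all tested genes. Among genes with a mean of 20 CPM or more these shares were 77.3% of 44 replication genes and 53.3% of 8046 tested genes. The 95% interval of the log2 fold change lay within 0.5 either side of 0 for 38 of the 45 genes (84.4%), and within 1 for all 45. It lay within 0.5 for 41.25% of all tested genes. With a mean of 20 CPM or more, the shares within 0.5 were 86.4% of replication genes and 63.1% of tested genes. Within 1 lay 7712 of those 8046 tested genes. The lowest bound was -0.52 (LIG1) and the highest 0.78 (CDT1). Both cadmium libraries lay above both controls for 12 genes (31.3% of all tested genes did so) and below both for 17 (30.8% of all tested genes). With a mean of 20 CPM or more, 11 of 44 replication genes lay above and 17 below. At that level 1990 of 8046 tested genes lay above and 3245 below. The 45 genes together took 0.694% and 0.7401% of all reads (controls) and 0.732% and 0.712% (cadmium), so that the groups overlapped.

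**Figure D3:**
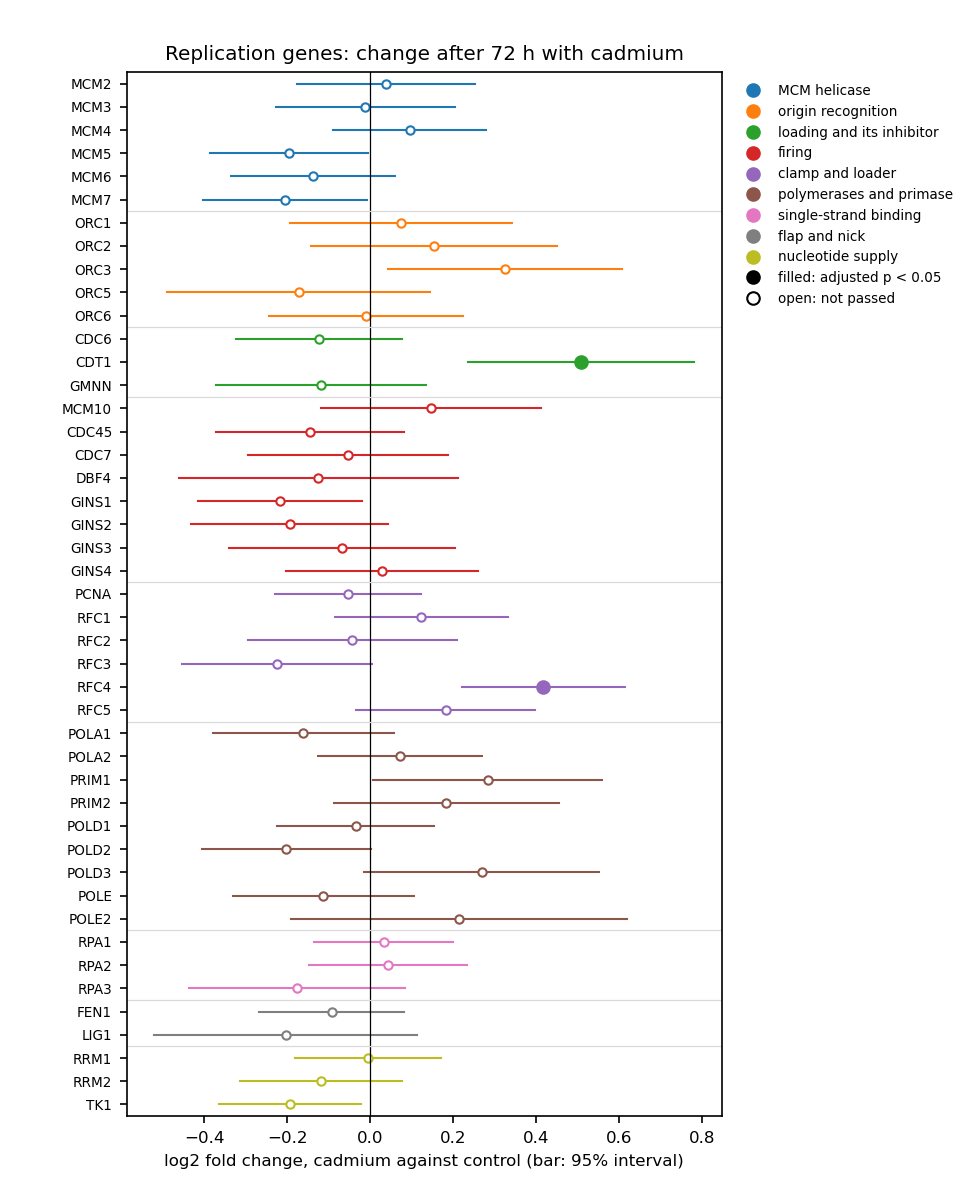
Log2 fold change of each replication gene, cadmium against control, with its 95% interval, coloured by role; filled points passed an adjusted p of 0.05 and open points did not. CDT1 (0.51) and RFC4 (0.42) stand to the right of the other genes, and all 45 intervals lie between -0.52 and 0.78.

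Of the 3 genes for helicase loading and its inhibition, CDT1 rose, and CDC6 and GMNN did not pass. The difference between them was not tested. CDT1 (chromosome 16, 88870186 to 88875666 in hg19, plus strand) stood at 111 and 110.0 CPM in the controls and at 176 and 138 CPM with cadmium. The controls were nearly equal, both cadmium libraries were higher, and cadmium replicate 1 was the highest. The log2 fold change was 0.51 (edgeR, SE 0.12, adjusted p = 0.0258). It was 0.32 (adjusted p = 0.201) without cadmium replicate 1 and 0.52 (adjusted p = 0.0507) without control replicate 1. For CDT1 the authors' deposited table holds mean levels of 36.0 RPKM (control) and 52.3 RPKM (cadmium) with an adjusted p of 0.00410. GMNN, which encodes the inhibitor of CDT1, had 69.3 and 58.0 CPM in the controls and 58.4 and 59.6 CPM with cadmium. Its groups overlapped, and its log2 fold change of -0.12 did not pass (95% interval -0.37 to 0.13).

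In RPKM, CDT1 lay below GMNN in both controls and above it in both cadmium libraries. In CPM it lay above GMNN in every library, so the crossing depends on the gene lengths used. The ratio of CDT1 to GMNN in RPKM was 0.756 and 0.897 without cadmium and 1.42 and 1.09 with it. Its mean was 0.827 ± 0.0996 in control and 1.26 ± 0.237 with cadmium (SD, n = 2 each), and the groups did not overlap. With 2 libraries a group no exact test of this ratio can pass a threshold of 0.05, so it is a description. It draws on the same reads as the rise of CDT1 and adds no separate evidence. CDC6, the other loading factor, had 160.0 and 151 CPM in the controls and 137 and 149 CPM with cadmium. Both cadmium libraries were lower, by a margin smaller than the spread within the cadmium group, and the log2 fold change of -0.12 did not pass (adjusted p = 0.356).

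The MCM helicase genes did not pass the test in either direction, and 2 of the 6 had an unadjusted p under 0.05, both lower. Of the 8046 tested genes with a mean of 20 CPM or more, 1948 were lower at that threshold (edgeR). MCM7 had 597 and 678 CPM in the controls and 561 and 544 CPM with cadmium, a log2 fold change of -0.21 (edgeR, SE 0.086, adjusted p = 0.133). MCM5 had 324 and 362 CPM in the controls and 299 and 299.8 CPM with cadmium, a log2 fold change of -0.20 (edgeR, SE 0.084, adjusted p = 0.139). For both genes the groups did not overlap, and the controls differed from each other by more than the cadmium libraries did. MCM2 had 391 and 453 CPM in the controls and 449 and 416 CPM with cadmium, and its groups overlapped (log2 fold change 0.037). MCM6 stood at -0.14, MCM3 at -0.012 and MCM4 at 0.095 on the log2 scale. MCM7 passed (adjusted p = 0.0363, log2 fold change -0.30) without control replicate 1. The MCM7 gene model also holds rows for MIR25, MIR93 and MIR106B, whose counts were at most 34 reads in a library, and it shares 434 bases with AP4M1 on the other strand.

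ORC genes spread to both sides of 0. ORC3, a core subunit, had 32.5 and 27.1 CPM in the controls and 38.4 and 37.0 CPM with cadmium, a log2 fold change of 0.32 (edgeR, SE 0.12, adjusted p = 0.105). Both cadmium libraries were above both controls, and the gene passed (adjusted p = 0.0381, log2 fold change 0.48) without control replicate 1. ORC1, the subunit whose level changes with the cell cycle, stood at 0.075 on the log2 scale, ORC2 at 0.15, ORC6 at -0.011 and ORC5 at -0.17.

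The firing factors did not pass, and 6 of the 8 had a log2 fold change below 0. Of the 8046 tested genes with a mean of 20 CPM or more, 4749 also lay below 0. GINS1, a subunit of the GINS complex, had 94.5 and 97.8 CPM in the controls and 82.9 and 82.2 CPM with cadmium. Its groups did not overlap, and the log2 fold change was -0.22 (edgeR, SE 0.086, adjusted p = 0.116, unadjusted p = 0.0338). GINS2 stood at -0.19 on the log2 scale, CDC45 at -0.15, DBF4 at -0.13, GINS3 at -0.069 and CDC7 at -0.054. GINS4 stood at 0.028 and MCM10, which helps to activate the helicase, at 0.15. The median over the 8 was -0.097, beside -0.059 over the tested genes with a mean of 20 CPM or more.

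Loader subunits stood on both sides of 0, and the difference among them was not tested. RFC4 (chromosome 3, 186507682 to 186524484 in hg19, minus strand) had 81.1 and 85.4 CPM in the controls and 112 and 109.9 CPM with cadmium. The libraries of each group lay close together and the groups were well apart. The log2 fold change was 0.42 (edgeR, SE 0.086, adjusted p = 0.0172). RFC4 stayed near this size without cadmium replicate 1 (0.41, adjusted p = 0.1197) and without cadmium replicate 2 (0.43, adjusted p = 0.0750), where it no longer passed. The authors' deposited table gives RFC4 mean levels of 52.2 RPKM (control) and 71.0 RPKM (cadmium) with an adjusted p of 0.00525. In hg19 the RFC4 row shares its last 4 bases with the end of EIF4A2, a translation factor gene on the other strand. EIF4A2 had 247 and 170 CPM in the controls and 329 and 317 CPM with cadmium (log2 fold change 0.62, adjusted p = 0.0534), and its part in the RFC4 value was not tested.

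RFC3, another small loader subunit, had 46.1 and 45.6 CPM in the controls and 38.8 and 39.7 CPM with cadmium. Its groups did not overlap, and its log2 fold change of -0.23 was the lowest of the 45 genes without passing (edgeR, SE 0.10, adjusted p = 0.1525). The ratio of RFC4 to RFC3 in RPKM was 3.005 and 3.14 in the controls and 4.78 and 4.67 with cadmium. These genes had the highest and lowest log2 fold change among the loader subunits, so a wide gap follows from that choice. The ratio draws on the same reads and adds no separate evidence. For RFC4 over RFC2 the mean ratio in RPKM was 1.16 in control and 1.61 with cadmium, a smaller shift. Neither ratio was tested. RFC5 stood at 0.18, RFC1 at 0.12 and RFC2 at -0.044 on the log2 scale.

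The clamp gene PCNA had 376 and 398 CPM in the controls and 377 and 368 CPM with cadmium. The groups overlapped, and the log2 fold change was -0.053 (95% interval -0.23 to 0.12). An antisense row, PCNA-AS1, lies wholly within PCNA (384 shared bases) and had 97.1 and 104 CPM in the controls and 56.5 and 50.6 CPM with cadmium. PCNA-AS1 fell by 0.90 on the log2 scale (edgeR, SE 0.099, adjusted p = 0.00313). Whether the counting used strand is not given in the sources used here, so reads of PCNA and of its antisense RNA may not be told apart.

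**Figure D4:**
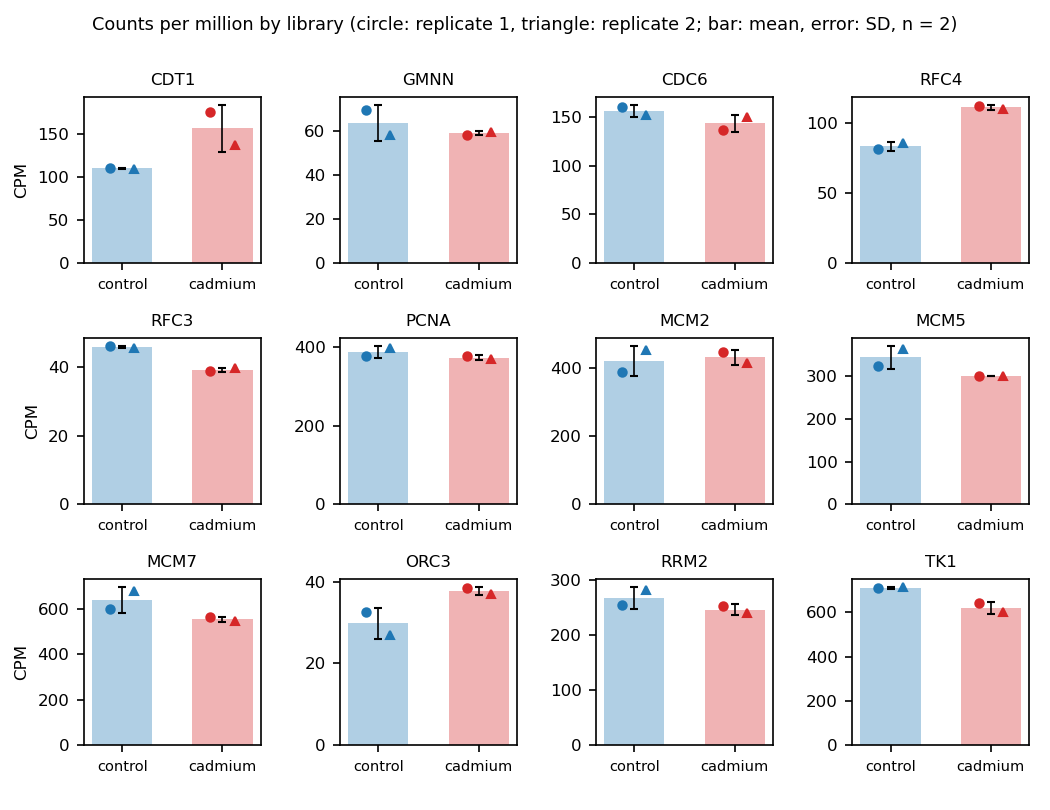
CPM (counts scaled to library size, linear axis from 0) of 12 replication genes in each library (circles replicate 1, triangles replicate 2), with the group mean as a bar and the SD (n = 2) as an error bar. CDT1 and RFC4 are higher in both cadmium libraries, RFC3, MCM5, MCM7 and TK1 lie lower in both without passing the test, and PCNA, GMNN and MCM2 overlap.

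Polymerase and primase genes stood on both sides of 0, 5 of 9 above it and 4 below, and none passed; 1 of the 9, PRIM1, had an unadjusted p under 0.05. PRIM1, the catalytic primase subunit, had 29.5 and 34.4 CPM in the controls and 39.9 and 37.1 CPM with cadmium (edgeR log2 fold change 0.28, SE 0.12, adjusted p = 0.139). POLD3, an accessory subunit of polymerase delta, had 51.4 and 59.9 CPM in the controls and 72.3 and 60.6 CPM with cadmium (log2 fold change 0.27, adjusted p = 0.167). For POLD3 the lower cadmium library was only just above the higher control. Without control replicate 2, PRIM1 (adjusted p = 0.0369) and POLD3 (adjusted p = 0.0407) passed. POLD2, another accessory subunit of the same polymerase, had 197 and 221 CPM in the controls and 186 and 176 CPM with cadmium (log2 fold change -0.20, adjusted p = 0.149). The catalytic subunits stood at -0.16 (POLA1), -0.036 (POLD1) and -0.11 (POLE), and the accessory subunits POLA2 at 0.071, PRIM2 at 0.18 and POLE2 at 0.21.

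None of the RPA, lagging-strand and nucleotide supply genes passed the test (edgeR), and TK1 alone among them had an unadjusted p under 0.05. RPA1 stood at 0.032, RPA2 at 0.043 and RPA3 at -0.18 on the log2 scale, and none passed, nor did any of the 3 have an unadjusted p under 0.05. LIG1, the ligase that seals Okazaki fragments, had 148 and 196 CPM in the controls and 158 and 140 CPM with cadmium. Its controls were far apart and the groups overlapped (log2 fold change -0.20, 95% interval -0.52 to 0.11), and it passed (adjusted p = 0.0252, log2 fold change -0.40) without control replicate 1. FEN1, the flap nuclease that trims the fragments, stood at -0.093.

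TK1 had 707 and 713 CPM in the controls and 639 and 602 CPM with cadmium. Both cadmium libraries were lower, and the log2 fold change was -0.19 (edgeR, SE 0.075, adjusted p = 0.111, unadjusted p = 0.0315). RRM2, the subunit of ribonucleotide reductase that is made in S phase, had 254 and 281 CPM in the controls and 253 and 239.5 CPM with cadmium. The higher cadmium library lay just under the lower control, and the log2 fold change of -0.12 did not pass. RRM1, the large subunit, stood at -0.0058 on the log2 scale.

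Genes with and without an E2F match in the promoter window covered a like range. The 19 genes with a match had their median log2 fold change at -0.11 and ran from -0.23 to 0.51, with CDT1 at the top. The 20 genes with a window but no match had a median of -0.0082 and ran from -0.20 to 0.42, with RFC4 at the top. This is a description of these genes, and no test was made.

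Other genes of the same process were read from lists of replication accessory genes, deoxynucleotide enzymes and E2F regulators. Of 31 other replication genes 3 rose (9.68%), 2 fell (6.45%) and 26 did not pass, with a median log2 fold change of -0.033. These shares lie near those of all tested genes (8.85% and 7.66%), so the counts set the list apart in neither direction, and the genes that passed are given singly. DTL, part of the ubiquitin ligase that degrades CDT1 on chromatin, rose by 0.42 on the log2 scale (edgeR, SE 0.100, adjusted p = 0.0255), from 78.1 and 67.6 CPM to 99.3 and 97.1 CPM. WDHD1, which links polymerase alpha to the helicase, rose by 0.43 (adjusted p = 0.0356), and ATAD5, which unloads PCNA, rose by 0.46 (adjusted p = 0.0389). UHRF1, which reads hemimethylated DNA behind the fork, had 168 and 167 CPM in the controls and 116 and 133 CPM with cadmium and fell by 0.43 (adjusted p = 0.0203), and the RNase H2 subunit gene RNASEH2C fell by 0.35 (adjusted p = 0.0309). Without cadmium replicate 1 none of these 5 passed (edgeR), and without cadmium replicate 2 UHRF1 alone did. WDHD1 and ATAD5 did not pass with the replicate number as a block (adjusted p = 0.0503 and 0.0747), where 1 of the 31 rose. ATAD5 also missed without control replicate 1 (adjusted p = 0.0882), with DESeq2 (0.0873), with level-dependent scaling (0.0638) and with thinned counts (0.0777). RNASEH2C missed without control replicate 1 (adjusted p = 0.0593), with library size alone (0.0568), with level-dependent scaling (0.0685) and with thinned counts (0.0723). Over all fits 0 to 4 of the 31 rose and 0 to 4 fell, with 4 each without control replicate 2.

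Of 13 other enzymes of deoxynucleotide supply or breakdown, 3 fell (23.1%), 0 rose and 10 did not pass, and the median log2 fold change was -0.28. Of all tested genes 7.66% were lower and 8.85% higher. Among tested genes with a mean of 20 CPM or more, 11.8% were lower and 7.63% higher. Without adjustment 8 of the 13 were lower and 0 higher at p under 0.05 (edgeR), beside 16.7% and 17.3% of all tested genes. With a mean of 20 CPM or more, 1948 of 8046 tested genes were lower and 1103 higher at that threshold. DESeq2 and limma-voom called 0 higher. DTYMK, thymidylate kinase, had 127 and 135 CPM in the controls and 91.0 and 86.1 CPM with cadmium and fell by 0.56 (edgeR, SE 0.087, adjusted p = 0.0082). NME1, a nucleoside diphosphate kinase, fell by 0.50 (adjusted p = 0.0319), and TYMS, thymidylate synthase, fell by 0.35 (adjusted p = 0.0490). NME1 adjoins NME2, a close copy, so the split of reads between them is uncertain. Both missed the threshold in several other fits, TYMS with an adjusted p of up to 0.242 and NME1 of up to 0.174, and the lower enzymes numbered from 1 to 7 over the fits.

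Of 22 E2F and RB regulators 1 fell (4.55%) and 0 rose, with a median of -0.054. Of all tested genes 7.66% were lower and 8.85% higher. E2F4, an E2F factor that mostly represses, fell by 0.36 on the log2 scale (edgeR, SE 0.092, adjusted p = 0.0334). E2F1, which activates replication genes, had 157 and 196 CPM in the controls and 176 and 155 CPM with cadmium, and its groups overlapped (log2 fold change -0.088). At an unadjusted p under 0.05, 4 of the 22 regulators were higher and 3 lower, beside 17.3% and 16.7% of all tested genes. Higher regulators numbered 0 with DESeq2 and 1 with limma-voom, and 0 to 2 over all fits. E2F4 did not pass without control replicate 1 (adjusted p = 0.0621), without cadmium replicate 1 (adjusted p = 0.269), without cadmium replicate 2 (adjusted p = 0.123), with library size alone (adjusted p = 0.0572), with the replicate block (adjusted p = 0.0596) and with thinned counts (adjusted p = 0.101).

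A list of 20 genes of mitosis and proliferation is given beside these as a comparison. Most act in mitosis, but CCNA2 encodes a cyclin of S phase as well, and MKI67 and TOP2A mark cycling cells more widely. Of the 20 genes 10 fell (50%), 0 rose and 10 did not pass, with a median log2 fold change of -0.30. Of all tested genes 7.66% were lower and 8.85% higher, and of those with a mean of 20 CPM or more 11.8% and 7.63%. At an unadjusted p under 0.05, 12 of the 20 were lower and 0 higher, beside 16.7% and 17.3% of all tested genes. With a mean of 20 CPM or more, 1948 of 8046 tested genes were lower and 1103 higher at that threshold. DESeq2 and limma-voom also called 0 higher. PLK1, a mitotic kinase, had 484 and 463 CPM in the controls and 290.2 and 280.0 CPM with cadmium and fell by 0.73 (edgeR, SE 0.077, adjusted p = 0.00307). CENPA, the centromeric histone, fell by 0.70, AURKA, another mitotic kinase, by 0.64, and CDC20, an activator of the anaphase-promoting complex, by 0.53 (adjusted p of 0.00705 for CDC20 and less for the others). The lowest replication gene, RFC3 at -0.23, lay above the median of the mitosis genes. Leaving out either cadmium library left 6 lower mitosis genes, and the other fits gave 8 to 12. The difference between the 2 lists was not tested.

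**Figure D5:**
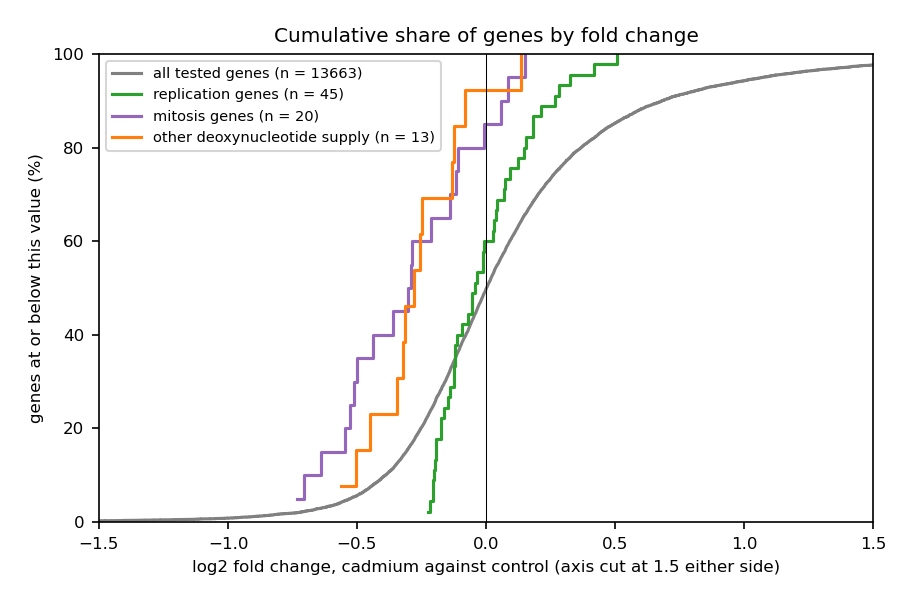
Cumulative share of genes by log2 fold change, cadmium against control, for all 13663 tested genes (grey), the 45 replication genes (green), 20 mitosis genes (purple) and 13 other deoxynucleotide enzymes (orange). The replication genes rise steeply around their median of -0.044, while the mitosis genes (median -0.30) and the deoxynucleotide enzymes (median -0.28) lie further left.

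Depth and RNA quality stand beside these results. Reads assigned to genes numbered from 8609243 (control replicate 2) to 29937242 (cadmium replicate 1), and every replication gene had at least 68 reads in every library. RNAs listed as nuclear-retained, as a possible sign of RNA quality, were higher with cadmium in sum. Their summed level over 7 listed genes was 854 and 1027 CPM in the controls and 1428 and 1452 CPM with cadmium. NEAT1 and MALAT1 made up most of it and passed, 4 others did not pass, and MEG3 had 0 reads. GAS5 stood at 0.047 on the log2 scale. Whether RNA quality differed was not tested, nor was where in the cell these RNAs lay. Their part in the replication results was not tested. In bulk RNA, a change in the share of cells in S phase and a change in RNA per cell cannot be told apart. Of the 9 epithelial markers, KRT8, KRT18 and KRT7 were at 204 CPM or more in every library, while KRT5, KRT14 and TP63 had no more than 1 read in any library and CDH1 was below 1 CPM.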

How the data were processed

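RNA from 4 BEAS-2B libraries was analysed, 2 per group. The labels' protocols name column isolation of total RNA and a TruSeq library kit. The submitters' processing notes list STAR 2.4, DESeq2, DESeq and hg19 with no roles. Which counter was used, and whether it used strand, is not given in the sources used here. Per the file headers and values, the authors deposited whole-number read counts per RefSeq gene. RPKM per library was deposited beside them. The comparison table the authors deposited holds a log ratio, whose base was taken as log2 and which is not printed here, with its p-value before and after adjustment.

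Genes were joined by RefSeq identifier. Counts were filtered with filterByExpr, scaled with TMM and fitted by group alone with edgeR 4.0.16 (robust quasi-likelihood test, R 4.3.3) over 13663 genes, with Benjamini-Hochberg adjusted p under 0.05 as the threshold. SEs and 95% intervals come from the F statistic, and the interval covers 1 gene at a time. Precision follows from 2 libraries a group and from depth, with 3 reads equal to 0.356 CPM in the shallowest library. Alternatives were other scalings, filters and tools (DESeq2 1.42.0, limma 3.58.1), a replicate block, thinned counts, leaving out each library and a threshold of 0.01. The procedure was also run on simulated counts whose spread was taken from these same libraries. That run checks the code and cannot separate an effect of experiment from one of cadmium.

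The genes, lists and tests were chosen with earlier results of these data known. Among the 45 genes, values per library are printed for those that passed, for MCM2, MCM5, MCM7, CDC6, CDT1, GMNN, PCNA, RRM2 and TK1, and for the 5 highest and 5 lowest fold changes. From each other list up to 4 passing genes with the smallest p are named, some of them by their fold change alone. ATAD5, E2F1, the members given by their log2 value alone, EIF4A2 and PCNA-AS1 were named after their values were seen, as were the genes whose promoters are printed. Promoters came from RefSeq (GRCh38.p14), and no coordinate was moved between builds. Marker lists were epithelial, ciliated or secretory, leukocyte, fibroblast and endothelial.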

Additional observations from a re-analysis of the deposited data

How the results depend on the processing

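Over the 45 genes and 14 other fits, 587 of 630 values kept their direction and their side of the threshold, 4 no longer passed, 5 newly passed and 34 changed sign. The 13 genes that changed sign had a main log2 fold change of at most 0.13 in size. With library size alone MCM3 was 0.047, ORC6 0.048, CDC7 0.0044, PCNA 0.0050, RFC2 0.015, POLD1 0.023 and RRM1 0.052. With level-dependent scaling MCM3 was 0.082, PCNA 0.042, RFC2 0.0037, POLD1 0.049 and RRM1 0.085. With the stricter filter (5 CPM in 2 libraries) MCM3 was 0.027, ORC6 0.028, POLD1 0.0029 and RRM1 0.032, and with limma-voom MCM3 was 0.0039. Leaving out 1 library in turn gave ranges across 0 of -0.068 to 0.14 (MCM2), -0.13 to 0.10 (MCM3), -0.040 to 0.17 (ORC1), -0.032 to 0.0019 (ORC6), -0.24 to 0.024 (GMNN), -0.30 to 0.11 (DBF4), -0.053 to 0.091 (GINS4), -0.15 to 0.057 (RFC2), -0.0014 to 0.13 (POLA2), -0.085 to 0.014 (POLD1) and -0.057 to 0.039 (RRM1).

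The median of the 45 genes was 0.015 with library size alone and 0.0037 with level-dependent scaling. Leaving out 1 library moved it between -0.068 (control replicate 1) and -0.0028 (control replicate 2). It gave 0 (cadmium replicate 1) to 4 (control replicate 2) higher and 0 to 2 (control replicate 1) lower replication genes. Over the whole table it gave 369 to 1977 higher and 235 to 1791 lower genes, fewest without cadmium replicate 1 and most without control replicate 2. At an adjusted p of 0.01, 0 replication genes were higher, 233 genes higher and 149 lower. With library size alone 682 genes were lower and 1445 higher (67.9% higher, 53.6% in the main fit). The cause of these shifts was not tested. Deviations of same-numbered libraries were only weakly correlated, with a negative sign (-0.19), so the numbers were not taken as pairs. The replicate block gave 2 higher and 0 lower replication genes, with 1073 higher and 811 lower over the whole table. A block with crossed numbers, added after seeing the data, gave 2 and 0, with 1551 and 1471.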

Other observations

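Inhibitors of cyclin-dependent kinases, which hold cells before S phase, moved both ways. Of 10 tested quiescence and arrest genes 2 rose (20%) and 2 fell (20%), with a median log2 fold change of -0.15. Of all tested genes 8.85% were higher and 7.66% lower. CDKN1C rose from 1.04 and 1.19 CPM in the controls to 7.25 and 7.15 CPM with cadmium (edgeR log2 fold change 2.72, SE 0.26, adjusted p = 0.00234), and CDKN2B rose by 0.62 (adjusted p = 0.0107). CDKN2C had 171 and 164 CPM in the controls and 102 and 87.3 CPM with cadmium and fell by 0.82 (adjusted p = 0.00424). CDKN2A fell by 0.44 (adjusted p = 0.0182) and did not pass without cadmium replicate 1 (adjusted p = 0.0596) or without cadmium replicate 2 (adjusted p = 0.0682).

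Among the epithelial markers KRT7 fell by 1.02 on the log2 scale (edgeR, adjusted p = 0.00234) and EPCAM rose by 1.36 (adjusted p = 0.0131). Summed over 4 listed endothelial markers the level was 0.384 and 0.475 CPM in the controls and 0.588 and 0.823 CPM with cadmium. Over 5 leukocyte markers it was 6.88 and 11.4 CPM in the controls and 11.3 and 7.66 CPM with cadmium, nearly all of it CD14, with CD3E and LYZ at 0 reads. Over 4 ciliated or secretory markers in the table it was at most 1.47 CPM. Over 6 fibroblast markers it was 4543 and 3724 CPM in the controls and 3451 and 3275 CPM with cadmium, most of it COL1A1, with DCN at 0 reads.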
